A study of Mus musculus with 384 samples.

Results

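Interferon-stimulated genes were described as a set of 39 genes in single mammary epithelial cells of mice. The set is a list of gene symbols. The rule uses no measured value, but the list was drawn up with earlier results of these data known. It makes up 39 of the 49585 genes in the count table, and 35 of the 39 reached a mean of 5 CPM (counts per gene, scaled to a common total of reads in genes) over the 5 groups of single cells, as did 11106 genes in all. RNA was sequenced cell by cell with a modified Smart-seq2 protocol, which reads along the whole transcript, in 384 wells of 1 plate. All mice carried the alleles K8rtta, TetO-DTA, K5CreER and Rosa-Tomato on a mixed background. In this design the K8 promoter, active in luminal cells, drives a doxycycline-dependent activator of diphtheria toxin A, and the K5 promoter, active in basal cells, drives a tamoxifen-dependent Cre that switches on the Tomato label.

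The 5 groups were hybrid, luminal and basal cells from ablated glands, and luminal and basal cells from wild-type (WT) glands. Ablated glands had received 0.2 mg doxycycline into the ducts, and cells were taken 1 week later, and for the WT groups the labels record no injection. WT cells carry the same alleles by their strain label. Cells were Tomato-positive and were sorted by CD29 and EpCAM, after removal of CD45-, CD31- and CD140a-positive cells. The labels name no animal, no age and no gate for the hybrid cells, so each group counts as 1 sample and no test between groups was possible. Intervals below are 95% intervals that cover the counting of reads, or which cells of a group were drawn, and none of them covers differences between animals.

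Interferons are secreted signals that act through JAK kinases and STAT proteins. Cells release those of type I and type III on sensing foreign or misplaced nucleic acid. Type I and type III interferons drive a complex that holds STAT2 and IRF9 onto the interferon-stimulated response element (ISRE), while interferon gamma acts through the gamma-activated site (GAS). The induced proteins block viral entry and replication, sense RNA and DNA, present antigen and feed back on the pathway itself, and epithelial cells keep some of them at a basal level without infection.

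The letters of these elements were looked for around the gene starts, because the pathway acts through them. A RefSeq promoter window of 300 bases on GRCm38.p6, from 250 bases before the gene start, was at hand for 30 of the 39 members. The ISRE letters GAAANNGAAA, on either strand, were in 15 of these 30 members, against 3.99% of the 27025 genes with such a window (3.44% of 32851 promoters). The GAS letters TTCNNNGAA were in 10 of the 30 members, against 9.55% of all genes (8.30% of promoters). Of the 30, 5 held both kinds of letters and 10 held neither. Letters in a window are a description and show neither binding nor use. Parp9, Ly6e, Dhx58, Zbp1, Usp18, Parp14, Iigp1, Rtp4 and Ifi27 had no window. The windows of Bst2, Isg15, Gbp2 and Irf1 are printed below as the 250 bases before the gene start, 5′ to 3′ on the gene's strand, with the matched letters in capitals. They stand for the arrangements found among genes that are described in detail further on. Bst2 (chr8:71537473-71537722, minus strand) has both kinds of letters, and its GAS letters overlap the first of its 2 ISRE matches. Isg15 (chr4:156200819-156201068, minus strand) has 3 overlapping ISRE matches. Gbp2 (chr3:142620413-142620662, plus strand) has 1 ISRE match, which reads on the opposite strand. Irf1 (chr11:53769764-53770013, plus strand) has 1 GAS match and no ISRE match in this window. It is the first of 2 RefSeq windows of Irf1, and the other held neither kind of letters.
Bst2: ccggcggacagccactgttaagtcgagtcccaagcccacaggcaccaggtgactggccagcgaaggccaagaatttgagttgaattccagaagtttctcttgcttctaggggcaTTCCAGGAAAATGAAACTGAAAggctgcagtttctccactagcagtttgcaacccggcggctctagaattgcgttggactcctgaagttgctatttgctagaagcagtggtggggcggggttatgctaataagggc
Isg15: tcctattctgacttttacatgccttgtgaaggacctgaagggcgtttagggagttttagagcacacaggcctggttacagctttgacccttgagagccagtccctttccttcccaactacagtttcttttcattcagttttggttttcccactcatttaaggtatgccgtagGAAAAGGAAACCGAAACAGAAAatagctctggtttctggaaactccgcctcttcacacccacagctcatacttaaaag
Gbp2: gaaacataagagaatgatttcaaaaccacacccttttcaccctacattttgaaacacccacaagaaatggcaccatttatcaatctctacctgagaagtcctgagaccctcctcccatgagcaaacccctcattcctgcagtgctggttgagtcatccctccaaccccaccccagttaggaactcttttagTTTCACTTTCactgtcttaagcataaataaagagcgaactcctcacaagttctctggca
Irf1: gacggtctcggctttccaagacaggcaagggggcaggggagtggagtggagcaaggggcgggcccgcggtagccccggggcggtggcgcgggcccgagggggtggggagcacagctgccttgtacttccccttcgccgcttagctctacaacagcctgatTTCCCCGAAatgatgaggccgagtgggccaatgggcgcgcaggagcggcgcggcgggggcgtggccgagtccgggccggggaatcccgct

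**Figure D1:**
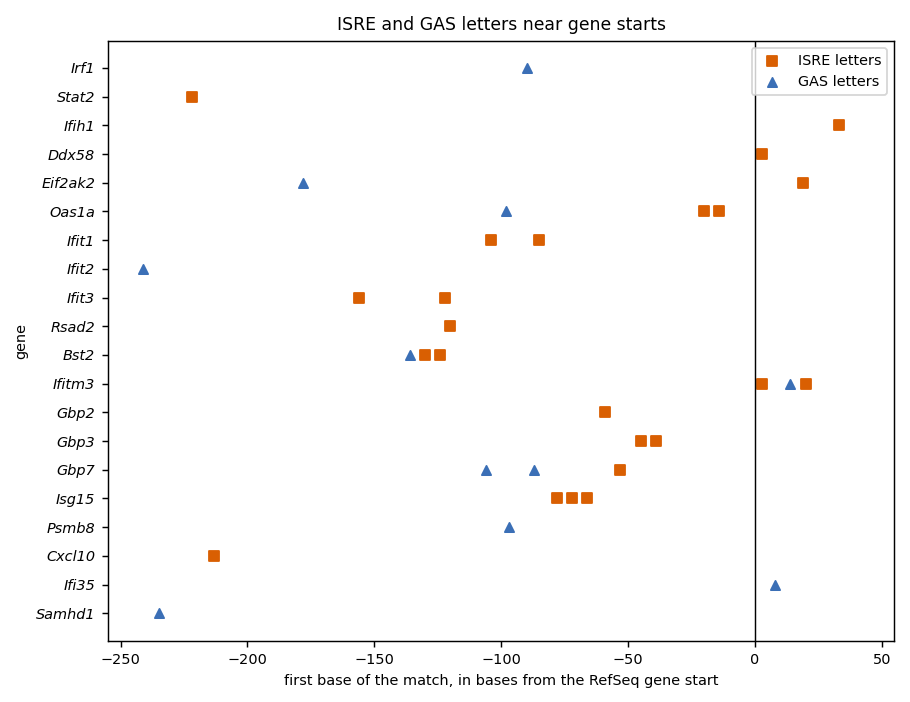
Positions of ISRE letters (squares) and GAS letters (triangles) in bases from the RefSeq gene start (0, vertical line), for the members with at least 1 match on either strand. ISRE letters occur in 15 members and GAS letters in 10, and Bst2, Gbp7, Oas1a, Eif2ak2 and Ifitm3 hold both.

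After wells with under 100000 reads in genes or over 20% mitochondrial reads were set aside, 319 of 374 single cells remained. These were 85 hybrid, 76 luminal and 71 basal cells from ablated glands, and 43 luminal and 44 basal cells from WT glands. Kept cells held between 118310 and 3835005 reads, with a median of 1048008. The lineage labels held up against their markers, with 1 exception. The 7 luminal markers summed to 13882 CPM in ablated hybrid, 22640 in ablated luminal and 1117 in ablated basal cells, and to 27126 in WT luminal and 1595 CPM in WT basal cells. The 7 basal markers summed to 13401, 4603 and 27412 CPM in the same ablated groups, and to 77.4 in WT luminal and 14879 CPM in WT basal cells. Ablated luminal cells thus held more basal marker RNA than WT luminal cells, most of it Krt14. Doublets were not called, and hybrid wells carry both marker sets. The 12 immune markers summed to 42.8, 13.2 and 33.4 CPM in the ablated hybrid, luminal and basal cells, and to 5.92 and 2.53 CPM in WT luminal and WT basal cells. Adgre1, a macrophage marker, had 0 reads in every group, and Ptprc, which encodes CD45, was seen in ablated hybrid cells only, at 0.438 CPM. Other markers of the list thus carried most of these sums. In the ablated hybrid, luminal and basal cells 4, 6 and 5 of the 12 had 0 reads. In ablated luminal cells 1 of the 12 was detected in at least 5% of cells, and in each other group 0 were. The 6 endothelial markers summed to 0.0141 to 7.42 CPM over the groups. The 6 fibroblast markers summed to 522, 92.6 and 1954 CPM in the ablated hybrid, luminal and basal cells and to 577 and 889 CPM in WT luminal and WT basal cells, mostly Dcn. The part of these other markers in the levels below was not tested.

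Most of the 39 genes were found in a minority of cells. To set groups of unequal depth side by side, every kept cell was thinned at random to 100000 reads, and a gene was called detected at 5 or more of them. Ly6e and Ifitm3 were the only members detected in at least 50% of the cells of every group. Psmb8 and Ifi27 passed 50% in the hybrid and both luminal groups but not in either basal group, and Irf1 passed it in hybrid cells alone. In all, 29 members reached 10% of the cells of at least 1 group and are described by name. The remaining 10 (Iigp1, Cxcl10, Gbp3, Ifit1, Ifit2, Ifit3, Rsad2, Dhx58, Zbp1 and Herc6) did not. In a pooled level, fewer expressing cells and less RNA per cell cannot be told apart, so shares of cells are given beside levels for the members on which the description turns.

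**Figure D2:**
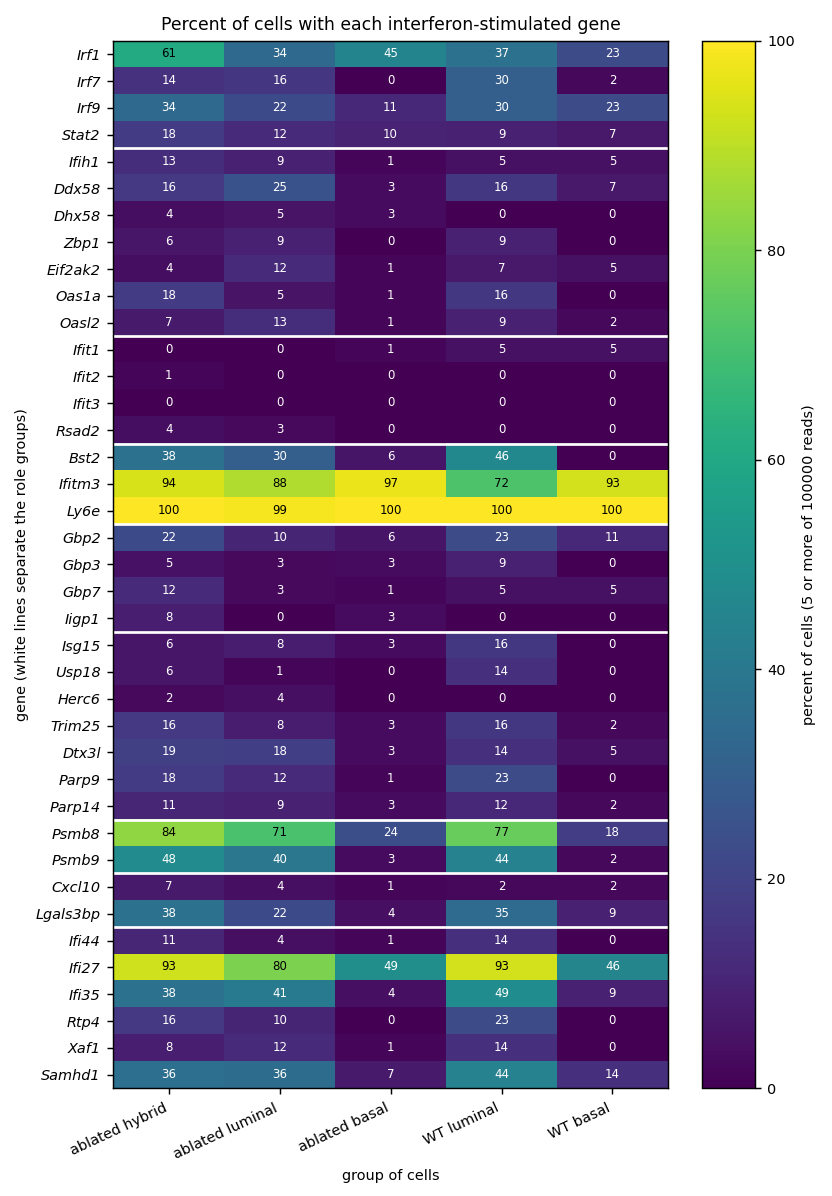
Percent of cells in which each of the 39 genes was detected (colour and printed number; 5 or more of 100000 thinned reads), for the 5 groups of cells, with the genes ordered by role. Ly6e and Ifitm3 pass 50% in all groups, Psmb8, Psmb9 and Ifi27 stand higher in the hybrid and luminal columns than in the basal ones, and most other genes stay under 50%.

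Among the membrane antiviral proteins, Ly6e is a surface protein anchored by lipid. It reached 5901 CPM in ablated hybrid, 9576 in ablated luminal and 3905 in ablated basal cells, against 15685 in WT luminal and 4668 CPM in WT basal cells. It was detected in 98.7% to 100% of the cells of each group. The median cell held 5139, 8567 and 3148 CPM in the ablated hybrid, luminal and basal groups, and 11753 and 4063 CPM in the WT luminal and WT basal groups. Ly6e was thus detected in nearly every cell, and its level was graded with lineage. Negative control wells, which received no cell, held 79 to 169 reads of Ly6e each, of 7930 to 13572 reads in genes. In many cells so many background reads could alone pass the detection limit. The share of cells therefore cannot tell expression from background for this gene.

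Ifitm3, a membrane protein that hinders entry of viruses, ran the other way. It stood at 756 CPM in ablated hybrid, 576 in ablated luminal and 1473 in ablated basal cells, against 394 in WT luminal and 1511 CPM in WT basal cells. Its log2 ratio was −1.34 in ablated luminal against ablated basal cells and −1.91 in WT luminal against WT basal cells. Per kilobase of exon, Ifitm3 exceeded Ly6e in both basal groups, with 2172 against 1032 CPM per kb in ablated basal cells and 2228 against 1234 CPM per kb in WT basal cells. In the hybrid and luminal groups Ly6e was the higher of the pair on that scale, with 1559 against 1114 CPM per kb in hybrid cells.

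Bst2, which tethers budding virus to the cell surface, was lower and patchier. It reached 64.6 CPM in ablated hybrid, 48.9 in ablated luminal and 17.3 in ablated basal cells, against 117 in WT luminal and 1.21 CPM in WT basal cells. It was detected in 37.6% of hybrid cells (27.4% to 48.8%), 30.3% of ablated luminal cells (20.2% to 41.9%) and 5.63% of ablated basal cells (1.56% to 13.8%). The share was 46.5% of WT luminal cells (31.2% to 62.3%) and 0 of 44 WT basal cells (at most 8.04%). In ablated basal cells 53.3% of its reads came from 1 cell.

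The immunoproteasome subunits replace standard proteasome subunits and change the peptides made for antigen presentation. Psmb8 stood at 481 CPM in ablated hybrid, 375 in ablated luminal and 110 in ablated basal cells, against 595 in WT luminal and 145 CPM in WT basal cells. Psmb9 stood at 128, 88.5 and 13.1 CPM in the ablated hybrid, luminal and basal cells, against 107 in WT luminal and 6.28 CPM in WT basal cells. Both genes therefore split the groups by luminal character, with the hybrid cells on the luminal side. Psmb8 was detected in 83.5%, 71.1% and 23.9% of the ablated hybrid, luminal and basal cells, and in 76.7% of luminal and 18.2% of basal WT cells. An antisense gene overlaps 14.7% of the exon length of Psmb8, and the sources do not state whether reads were counted by strand.

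The transcription factors of the set differed among themselves. Irf1, an early factor that interferon gamma induces strongly, reached 273 CPM in ablated hybrid, 128 in ablated luminal and 484 in ablated basal cells, against 203 in WT luminal and 224 CPM in WT basal cells. It was detected in 61.2% of hybrid, 34.2% of ablated luminal and 45.1% of ablated basal cells, and in 37.2% of luminal and 22.7% of basal WT cells. The highest share was thus in hybrid cells while the highest pooled level was in ablated basal cells, where 1 cell held 40.1% of the reads.

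Irf7, the factor that amplifies type I interferon, followed lineage instead. It reached 25.7 CPM in ablated hybrid, 50.2 in ablated luminal and 0.322 in ablated basal cells, against 135 in WT luminal and 1.62 CPM in WT basal cells. It was found in 14.1%, 15.8% and 0% of the ablated hybrid, luminal and basal cells, and in 30.2% of luminal and 2.27% of basal WT cells. The 0 of 71 ablated basal cells allow a share of at most 5.06%. Its multicell libraries did not follow this order, as given further on.

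Irf9 and Stat2 encode components of the complex that type I interferon activates. Irf9 stood at 121 CPM in ablated hybrid, 52.7 in ablated luminal and 34.3 in ablated basal cells, against 84 in WT luminal and 175 CPM in WT basal cells. Stat2 stood at 49.3, 19.1 and 19.6 CPM in the ablated hybrid, luminal and basal cells, against 6.61 in WT luminal and 46.1 CPM in WT basal cells. Among ablated groups both were highest in hybrid cells, detected in 34.1% of them for Irf9 and in 17.6% for Stat2. In WT basal cells 1 cell held 50.3% of the Irf9 reads and 67.3% of the Stat2 reads.

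Sensors of foreign nucleic acid were low everywhere. Ddx58, which encodes the RNA sensor RIG-I, reached 49 CPM in ablated hybrid, 69.1 in ablated luminal and 23.9 in ablated basal cells, against 58.9 in WT luminal and 44.3 CPM in WT basal cells. Ifih1, which encodes the RNA sensor MDA5, stayed at 13.7, 14.5 and 5.82 CPM in the ablated hybrid, luminal and basal cells, against 14.8 and 5.65 CPM in WT luminal and WT basal cells. Ddx58 was detected in 25% of ablated luminal but 2.82% of ablated basal cells, where 1 cell held 82.4% of its reads. Eif2ak2, which encodes the kinase PKR, reached 7.48, 15.9 and 3.03 CPM in the ablated hybrid, luminal and basal cells, against 40.5 and 44.3 CPM in WT luminal and WT basal cells. Its WT levels rested on few cells, with 87.2% of the WT basal reads in 1 cell and 98.6% of the WT luminal reads in 5 cells.

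Of the OAS family, Oas1a makes the messenger that activates RNase L, and Oasl2 is a related protein. Oas1a reached 27.8, 7.84 and 7.22 CPM in the ablated hybrid, luminal and basal cells, against 31.2 CPM in WT luminal cells and 0 reads in WT basal cells (at most 0.0799 CPM). Oas1a shares 57.6% of its 50-base stretches with Oas1g, so its counts are uncertain. Oasl2 reached 33.1, 43 and 11.8 CPM in the ablated hybrid, luminal and basal cells, against 22.5 and 16.9 CPM in WT luminal and WT basal cells. The remaining sensors, Dhx58 and Zbp1, stayed between 0 and 28.3 CPM.

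The IFIT family and viperin (Rsad2), which are among the most inducible genes of a type I response, were nearly absent. Ifit1 reached at most 17 CPM, in WT basal cells, where 95.3% of its reads came from 1 cell. Rsad2 reached at most 11.4 CPM, in ablated luminal cells, and Ifit2 at most 5.03 CPM, in hybrid cells. Ifit3 had 0 reads in every well, and 51.2% of its 50-base stretches are shared with Ifit3b, which also had 0. None of these 4 genes passed 5% of the cells of any group.

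Guanylate-binding proteins and Iigp1 are GTPases that attack vacuoles of intracellular pathogens and respond strongly to interferon gamma. Gbp2 reached 83 CPM in ablated hybrid, 23.3 in ablated luminal and 7.63 in ablated basal cells, against 145 in WT luminal and 79.9 CPM in WT basal cells. Gbp7 reached 26.4, 5.90 and 8.58 CPM in the ablated hybrid, luminal and basal cells, against 4.95 and 13.6 CPM in WT luminal and WT basal cells. Gbp2 was detected in 22.4% of hybrid and 23.3% of WT luminal cells. In single cells the hybrid group had more Gbp2 and Gbp7 than either other ablated group, and 30.2% of the hybrid Gbp2 reads lay in 1 cell. The multicell libraries of the ablated groups gave the reverse order for Gbp2, as given further on. Iigp1 was at 24.2 CPM in hybrid cells, against 0.0141 to 2.02 CPM in the other 4 groups, and Gbp3 lay between 0.0433 and 32.8 CPM.

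Isg15 encodes a ubiquitin-like modifier, and Usp18 the protease that removes it and also dampens the type I receptor. Isg15 reached 12.1, 17.1 and 8.65 CPM in the ablated hybrid, luminal and basal cells, against 35.8 in WT luminal and 0.217 CPM in WT basal cells. Usp18 reached 13.5, 2.85 and 0.0678 CPM in the ablated hybrid, luminal and basal cells, against 65 in WT luminal and 0.130 CPM in WT basal cells. Both were highest in WT luminal cells, where they were detected in 16.3% and 14% of cells. Trim25, a ubiquitin ligase that activates RIG-I, reached 35.1, 15.3 and 19.7 CPM in the ablated hybrid, luminal and basal cells, against 18.3 and 10.2 CPM in WT luminal and WT basal cells. The ligase Herc6 stayed between 0 and 7.51 CPM.

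Parp9 and Dtx3l are neighbouring genes on opposite strands whose proteins form a pair that modifies histones and viral proteins. Parp9 reached 41.3, 21.8 and 4.22 CPM in the ablated hybrid, luminal and basal cells, against 101 in WT luminal and 0.303 CPM in WT basal cells. Dtx3l varied less, with 32.9, 35.6 and 17.5 CPM in the ablated hybrid, luminal and basal cells, against 41.3 and 22.7 CPM in WT luminal and WT basal cells. Of the exon length of Parp9, 9.40% overlaps Dtx3l. Parp14, a relative of Parp9, reached 25.8, 33.6 and 2.58 CPM in the ablated hybrid, luminal and basal cells, against 11.8 and 13.8 CPM in WT luminal and WT basal cells. In WT basal cells 99.4% of the Parp14 reads came from 1 cell.

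The secreted products were Lgals3bp, a glycoprotein that binds galectins, and Cxcl10, a chemokine that draws T cells. Lgals3bp reached 117 CPM in ablated hybrid, 76.2 in ablated luminal and 22.9 in ablated basal cells, against 157 in WT luminal and 78.7 CPM in WT basal cells. It was detected in 37.6%, 22.4% and 4.23% of the ablated hybrid, luminal and basal cells, and in 34.9% of luminal and 9.09% of basal WT cells. Cxcl10 was concentrated in few cells. It reached 89.8 CPM in hybrid cells with 97.8% of the reads in 5 cells, and 50.4 CPM in ablated basal cells with 99.8% of the reads in 1 cell. The other 3 groups held 7.45 to 20.8 CPM.

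Of the other induced genes, Ifi27, a mitochondrial and nuclear envelope protein, was the most widely detected. It reached 714, 437 and 426 CPM in the ablated hybrid, luminal and basal cells, against 822 and 407 CPM in WT luminal and WT basal cells. Its shares of cells were 92.9%, 80.3% and 49.3% in the ablated hybrid, luminal and basal groups, and 93.0% and 45.5% in WT luminal and WT basal cells. Basal groups thus held the gene in fewer cells. Samhd1, which depletes nucleotides that viruses need, reached 96.4, 56.1 and 71 CPM in the ablated hybrid, luminal and basal cells, against 151 and 91 CPM in WT luminal and WT basal cells. It was detected in 36.5% and 35.5% of ablated hybrid and luminal cells but 7.04% of ablated basal cells.

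Ifi35, which interacts with other interferon-induced proteins, reached 97.3, 93.1 and 11.8 CPM in the ablated hybrid, luminal and basal cells, against 150 and 53.1 CPM in WT luminal and WT basal cells. A gene on the opposite strand overlaps 16.8% of its exon length. Rtp4, a chaperone of receptors, reached 38.3, 18.3 and 0.136 CPM in the ablated hybrid, luminal and basal cells, against 106 and 0.260 CPM in WT luminal and WT basal cells. Ifi44 reached 34.3, 9.93 and 7.38 CPM in the ablated hybrid, luminal and basal cells, against 93.7 and 0.282 CPM in WT luminal and WT basal cells. Xaf1, a regulator of apoptosis, reached 10.8, 25.5 and 2.54 CPM in the ablated hybrid, luminal and basal cells, against 20.8 and 0.607 CPM in WT luminal and WT basal cells. In single cells all 4 were lower in basal than in luminal cells, in ablated and in WT glands, and Rtp4 was detected in 0 of the 71 ablated basal cells and 0 of the 44 cells of the WT basal group (at most 5.06% and 8.04%).

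**Figure D3:**
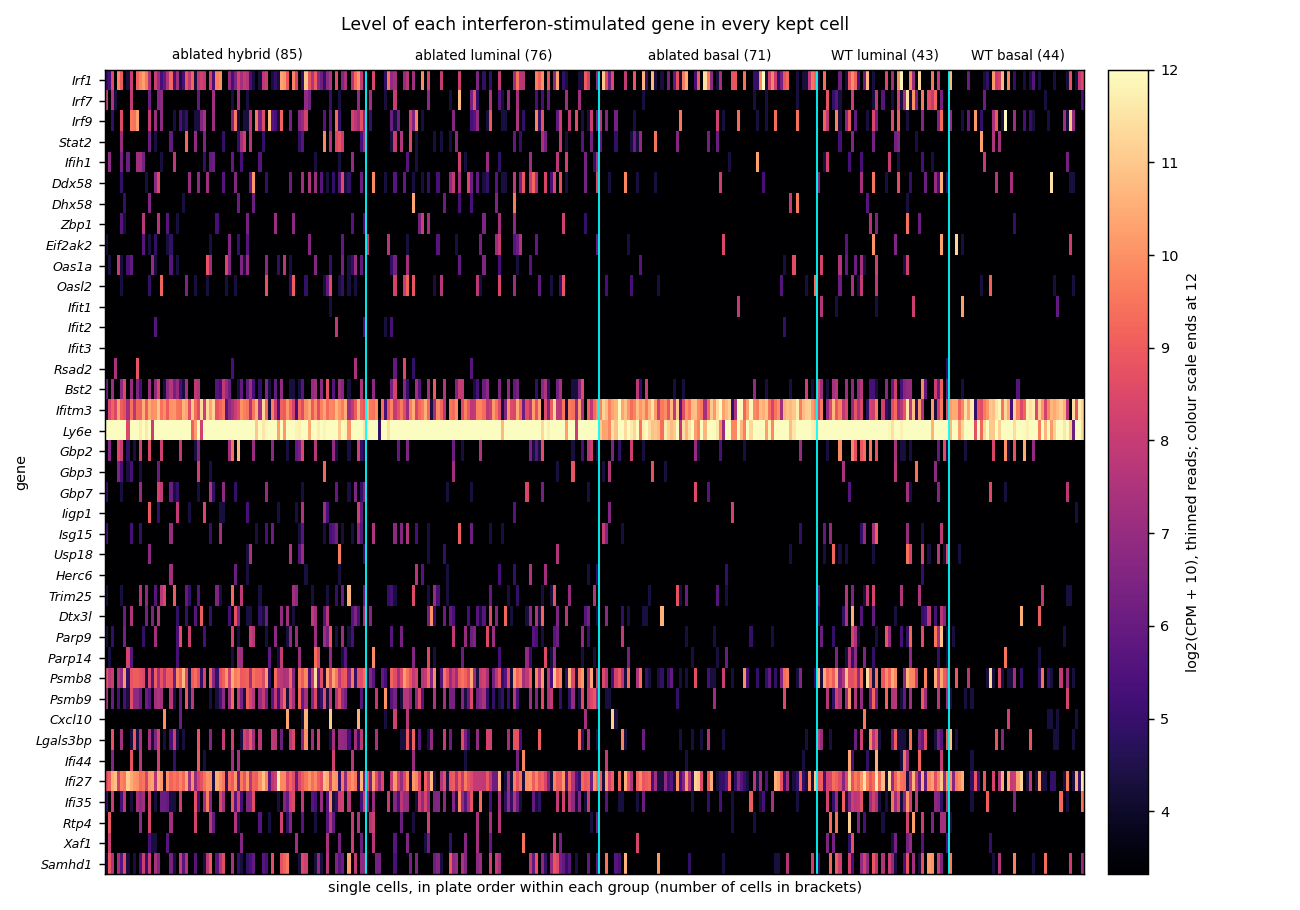
Level of each of the 39 genes (lines) in each of the 319 kept cells (columns), as log2(CPM + 10) of thinned reads, with the cells in plate order inside each group. Ly6e and Ifitm3 run as bands through all 5 groups, Ifi27 and Psmb8 fill most hybrid and luminal cells but fewer than 50% of the cells of each basal group, and most other genes appear as scattered single cells.

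How many of the 39 genes a single cell held also differed by group. The median was 9 genes in ablated hybrid (range 3 to 17), 7 in ablated luminal (1 to 15) and 4 in ablated basal cells (2 to 10), against 9 in WT luminal (2 to 16) and 3 in WT basal cells (2 to 8). Without thinning the medians were 13, 10 and 5 in the ablated hybrid, luminal and basal cells, and 11 and 5 in WT luminal and WT basal cells. Cells with 10 or more of the genes made up 47.1% of hybrid (36.1% to 58.2%), 31.6% of ablated luminal (21.4% to 43.3%) and 1.41% of ablated basal cells (0.0357% to 7.60%). They made up 39.5% of WT luminal (25% to 55.6%) and 0 of 44 WT basal cells (at most 8.04%). Basal cells of both glands therefore rarely held more than a handful.

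Cells also differed in how many genes of any kind they held at the same 100000 reads. The median was 2984 genes in ablated hybrid, 2828 in ablated luminal and 1627 in ablated basal cells, against 1913 in WT luminal and 1219 in WT basal cells. As a share of all genes detected in the cell, interferon-stimulated genes had medians of 0.318% in ablated hybrid, 0.291% in ablated luminal and 0.246% in ablated basal cells, against 0.455% in WT luminal and 0.308% in WT basal cells. On this scale hybrid cells no longer equalled WT luminal cells, and WT basal cells lay close to hybrid cells. Across cells, the number of interferon-stimulated genes went with the number of genes detected, with Spearman's rho of 0.56 in 85 hybrid, 0.26 in 76 ablated luminal and 0.32 in 71 ablated basal cells, and 0.38 in 43 WT luminal and 0.37 in 44 WT basal cells. Both counts come from the same library of a cell. The part of the number of genes in the group differences was not tested.

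**Figure D4:**
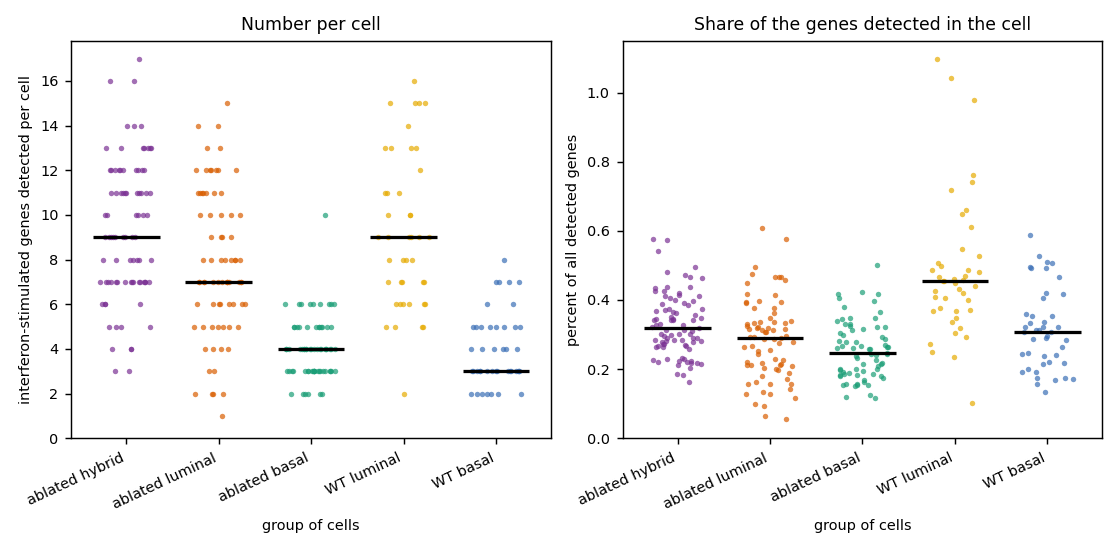
Number of interferon-stimulated genes detected in each kept cell (left) and the same number as a percent of all genes detected in that cell (right), both at 100000 thinned reads; each point is a cell and each bar the group median. Medians on the left are 9, 7, 4, 9 and 3 from left to right, and on the right WT luminal cells stand highest at 0.455%.

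The groups were laid out in blocks of the plate, so position and group go together. Hybrid cells had medians of 8 to 11 genes over their 4 plate rows and WT luminal cells medians of 8 to 9 over 3 rows. Where a row held cells of a pair of groups, row M gave medians of 9 in 17 hybrid and 9.50 in 4 ablated luminal cells. Row C gave 8 in 11 WT luminal and 3 in 10 WT basal cells. Row I gave 5 in 9 ablated luminal and 4 in 4 ablated basal cells, and row E gave 5 in 9 ablated basal and 3 in 13 WT basal cells. The lead of hybrid over ablated luminal cells was thus absent in the row that both shared, which has 4 cells on 1 side, and no row was shared for hybrid against ablated basal or for ablated against WT luminal cells.

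Ratios of pooled levels were taken on the log2 scale after adding 10 CPM to each group, and a member was called at 2-fold or more. In ablated hybrid against ablated basal cells, 17 of 39 members were called higher and 0 lower, where 16% of all measured genes were called higher and 8.87% lower. The median log2 ratio of the 39 was 0.80 (0.59 to 1.35, an order-statistic interval over the 39 genes, which are not independent), beside 0.14 over all measured genes. Psmb9 (2.58), Gbp2 (2.40), Ifi35 (2.30), Rtp4 (2.25) and Psmb8 (2.04) led. Lgals3bp (1.95), Parp9 (1.85), Irf7 (1.79) and Irf9 (1.56) followed. Ifitm3 was the member nearest to a call in the other direction, at −0.95. Both immunoproteasome subunits, 3 of 4 transcription factors and 2 of 4 GTPases were among those called. Under TMM scaling 1 member was called lower, and under median-of-ratios scaling 2 were.

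In ablated hybrid against ablated luminal cells, 9 of 39 members were called higher and 1 lower, against 6% and 4.19% of all measured genes. The median was 0.38 (−0.09 to 0.69), beside −0.01 over all measured genes. Gbp2 (1.48), Gbp7 (1.19), Ifi44 (1.15), Oas1a (1.08), Irf9 (1.06), Irf1 (1.04) and Stat2 (1.03) were called higher, with Cxcl10 (2.32) and Iigp1 (1.63) from the rarely detected members. Of the 8 members that are also known as targets of interferon gamma, a list drawn up with earlier results known, 5 were called higher and 0 lower. These 5 were Irf1, Gbp2, Gbp7, Iigp1 and Cxcl10. Their ratios in the multicell libraries were 1.15, −0.91, 1.53, 1.05 and −0.91 in that order. Whether interferon gamma played a part was not tested. Dhx58, at 3.24 CPM in hybrid and 23.8 CPM in ablated luminal cells, was the 1 called lower, and was no longer called without its top cell. With equal weight per cell 5 members were called higher.

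In ablated luminal against WT luminal cells, 3 of 39 members were called higher and 11 lower, against 15.3% and 6.61% of all measured genes. The median was −0.63 (−0.96 to 0.00), beside 0.21 over all measured genes. Usp18 (−2.54), Ifi44 (−2.38), Gbp2 (−2.22) and Rtp4 (−2.04) had the lowest ratios. Their WT luminal levels rested on few cells, with 87.5%, 97.4%, 76.8% and 84.8% of the reads in 5 cells, in that order. They were detected in 14% to 23.3% of WT luminal and 1.32% to 10.5% of ablated luminal cells. Without each group's top cell the ratios were −2.38, −2.40, −2.23 and −1.65. Parp9 (−1.81), Samhd1 (−1.28), Irf7 (−1.27), Oas1a (−1.21) and Bst2 (−1.11) were called lower as well. Parp14 (1.00), Dhx58 and Rsad2 were the 3 called higher. In ablated luminal cells 55.3% of the Parp14 reads were in 1 cell, and without each group's top cell its ratio was 0.60. The 7 basal markers moved with this comparison, 6 of them being called higher in ablated luminal cells. Their part in it was not tested.

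In ablated basal against WT basal cells, 4 of 39 members were called higher and 5 lower, against 19.8% and 14.9% of all measured genes, and the median was −0.01 (−0.30 to 0.24), beside 0.05. Bst2 (1.29) and Irf1 (1.08) were called higher among the named members, and Gbp2 (−2.35), Irf9 (−2.06), Eif2ak2 (−2.06), Ifi35 (−1.53) and Lgals3bp (−1.43) lower. Without the top cell of each group for each gene, 0 members were called higher and 3 lower. The 5 lower calls lay near the share of all genes. Their number rested on the processing, with 8 lower under TMM scaling, under median-of-ratios scaling and with equal weight per cell. The multicell libraries gave 5 higher and 10 lower, and the shared plate row 11 higher and 6 lower. No direction of the set is read from this comparison.

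Between lineages, ablated luminal against ablated basal cells gave 15 members called higher and 3 lower, against 19.3% and 13.2% of all measured genes, with a median of 0.73 (0.08 to 1.16) beside 0.16. WT luminal against WT basal cells gave 15 higher and 2 lower, against 22.3% and 21.3%, with a median of 0.67 (0.07 to 1.75) beside 0.01. In WT glands the ratios ran up to 3.64 for Irf7, 3.50 for Bst2, 3.50 for Rtp4 and 3.43 for Parp9. In ablated glands they were 2.54, 1.11, 1.48 and 1.16 for the same genes. Ifitm3 was called lower in luminal cells in both, Irf1 (−1.85) and Cxcl10 (−1.60) were called lower in the ablated pair, and Stat2 (−1.76) in the WT pair. These comparisons share groups with those above, so their counts are not separate evidence.

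**Figure D5:**
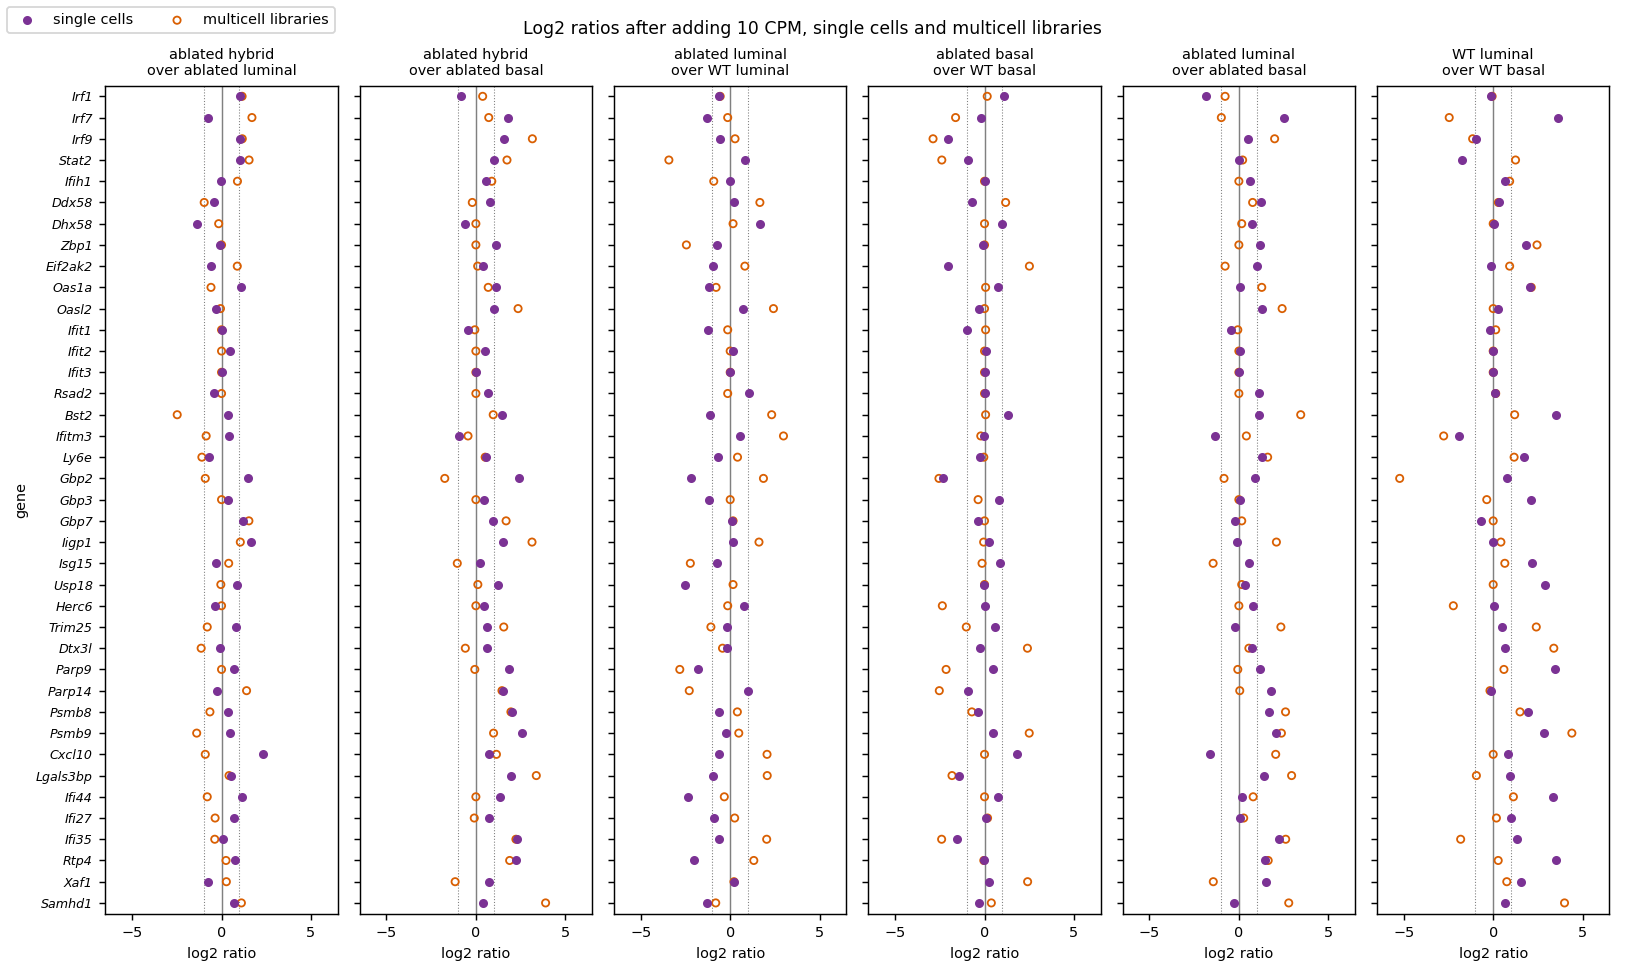
Log2 ratios of the 39 genes after adding 10 CPM, 1 panel per comparison with the first-named group over the second, for pooled single cells (filled) and for the multicell libraries (open); dotted lines mark 2-fold. Filled points lie mostly right of 0 in hybrid against ablated basal cells, where 17 are past 2-fold, and mostly left of 0 in ablated against WT luminal cells, and open points often lie elsewhere.

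Each group also had 1 library made from many cells, which gives a second, unreplicated measurement. Over the 39 members, levels in single cells and in the multicell library had Spearman's rho of 0.78 in hybrid, 0.81 in ablated luminal and 0.53 in ablated basal cells, and 0.63 in WT luminal and 0.61 in WT basal cells. Psmb8 and Ly6e were again higher in luminal than in basal libraries, in ablated and in WT glands. Psmb8 was at 459, 724 and 110 CPM in the ablated hybrid, luminal and basal multicell libraries, against 547 and 187 CPM in WT luminal and WT basal ones. Ly6e was at 6042, 12932 and 4221 CPM in the ablated hybrid, luminal and basal multicell libraries, against 9756 and 4330 CPM in WT luminal and WT basal ones. For both genes the ablated luminal library stood above the WT luminal one, where single cells gave the opposite order.

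Of members called higher in luminal over basal single cells, 10 had the same and 3 the opposite sign in the ablated multicell libraries. For WT glands these numbers were 11 and 3. The lower calls gave 1 of the same and 2 of the opposite sign in ablated glands, and 1 and 1 in WT glands. Some members thus did not repeat their order by lineage. Ifitm3 was at 971, 1767 and 1322 CPM in the ablated hybrid, luminal and basal multicell libraries, against 215 and 1529 CPM in the WT luminal and WT basal ones. Its log2 ratio in ablated luminal against ablated basal cells was thus 0.42 in these libraries and −1.34 in single cells, while in WT glands it was negative in both. Irf7 was at 75.2, 16.2 and 41.8 CPM in the ablated hybrid, luminal and basal multicell libraries, against 18.9 and 149 CPM in the WT luminal and WT basal ones. Gbp2 was at 26.7, 58.9 and 112 CPM in the ablated hybrid, luminal and basal ones, against 8.95 and 703 CPM in the WT luminal and WT basal ones. Of the members called in single cells, those called higher in hybrid against ablated basal cells had the same sign in the multicell libraries for 13 and the opposite sign for 2, while the others were at 0. For hybrid against ablated luminal cells the higher calls gave 5 of the same and 4 of the opposite sign. For ablated against WT luminal cells the lower calls gave 6 of the same and 4 of the opposite sign, and the multicell median was 0.16 where single cells gave −0.63. Over all measured genes the medians of this comparison were 0.30 in the multicell libraries and 0.21 in single cells. The set median thus lay below that of all genes in both. A negative set median, as in single cells, was not seen in the multicell libraries.

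The rest of the pathway was followed through the genes detected in at least 25% of the cells of a group. Interferon ligands were at or near 0, with 11 ligand genes summing to 0 reads in ablated hybrid and ablated luminal cells, 1.63 CPM in ablated basal cells, 0.0422 CPM in WT luminal and 0.0217 CPM in WT basal cells. All of these reads were of Ifnk, which was detected in 1 ablated basal cell. The 6 receptor subunits summed to 326, 305 and 245 CPM in the ablated hybrid, luminal and basal cells, against 403 and 379 CPM in WT luminal and WT basal cells. Of the 6, 0 were called in hybrid against ablated luminal cells and 0 in ablated against WT luminal cells. In hybrid against ablated basal cells 1 was called higher, Ifngr2 (1.15), where 16% of all measured genes were. In ablated against WT basal cells 2 were called lower, Ifngr1 (−1.39) and Il10rb (−1.48), beside 14.9%. In luminal against basal cells 2 were called higher, Ifngr2 and Ifnlr1, in ablated and in WT glands, beside 19.3% and 22.3%. Ifngr1 and Ifngr2 encode the receptor of interferon gamma, Ifnlr1 a subunit of the type III receptor, and Il10rb the subunit that it shares with the interleukin 10 receptor. With 6 genes these counts are a description only. Ifnar2, a subunit of the type I receptor, was detected in 38.8%, 34.2% and 19.7% of the ablated hybrid, luminal and basal cells, and in 44.2% of luminal and 20.5% of basal WT cells.

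Signalling genes were more abundant than receptors without sharing 1 pattern. Stat3, which also serves interleukin 6 signalling, was at 725, 406 and 434 CPM in the ablated hybrid, luminal and basal cells, against 527 and 889 CPM in WT luminal and WT basal cells. Myd88, an adaptor of Toll-like receptors, was at 179, 116 and 125 CPM in the ablated hybrid, luminal and basal cells, against 18.8 and 133 CPM in WT luminal and WT basal cells. Its log2 ratio in ablated against WT luminal cells was 2.14 in single cells and 3.53 in the multicell libraries, opposite in direction to most interferon-stimulated genes in single cells.

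Irf3, a factor that nucleic acid sensing activates, was at 139 CPM in ablated luminal and 34.8 CPM in WT luminal cells, a log2 ratio of 1.73. The multicell libraries gave the opposite direction, with 54.1 CPM in ablated luminal and 76.6 CPM in WT luminal cells and a ratio of −0.43. Socs3, an inhibitor of JAK kinases, was at 600, 144 and 1411 CPM in the ablated hybrid, luminal and basal cells, against 168 and 1750 CPM in WT luminal and WT basal cells. Socs3 was thus highest in the basal groups, and any link between it and the interferon-stimulated genes was not tested. Of 30 further interferon-stimulated genes, 6 were called higher and 0 lower in hybrid against ablated basal cells, where 16% and 8.87% of all measured genes were. In hybrid against ablated luminal cells 3 were higher and 0 lower, beside 6% and 4.19%, and in ablated against WT luminal cells 1 was higher and 3 lower, beside 15.3% and 6.61%. With 30 genes the higher calls in both hybrid comparisons lay near those shares, so nothing is read from them. Irgm1, a GTPase of the Iigp1 family, was at 152, 18.9 and 165 CPM in the ablated hybrid, luminal and basal cells, against 25.9 and 29.2 CPM in WT luminal and WT basal cells. Irgm1 was thus highest in the hybrid and basal cells of ablated glands.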

How the data were processed

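The authors deposited unscaled read counts, as whole numbers with unequal totals per well. Per the submitters' processing notes, GRCm38, Seurat, HTSeq 0.6.0, STAR 2.5.2b and cutadapt 1.13 were used, with no roles given. Symbols came from GENCODE M21 (49326 identifiers found). Kept wells had at least 100000 reads, 1000 genes and at most 20% mitochondrial reads. Reads were summed per group, scaled to CPM and compared as log2 ratios after adding 10 CPM. A floor of 3 reads is 0.0313 to 0.0650 CPM per group. Intervals are exact Poisson for levels, Clopper-Pearson for shares and order-statistic over genes for medians of the set. PCR reads are not independent molecules, so these cover counting error only.

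The 39 members and the 21 gene lists were chosen with earlier results of these data known. A member was named with values if detected in 10% of the cells of a group, and other pathway genes if in 25%. Roles are textbook knowledge. No groups were tested against each other, since the labels name no animal. The summing step was tested on simulated counts, in which reads were spread over cells more evenly than in these data. That test does not bear on calls that rest on few cells. Python 3.11.15, R 4.3.3 and edgeR 4.0.16 (TMM factors only) were used. Alternatives covered the read minimum, mitochondrial limit, scaling, added CPM, cell weights, top cells, thinning, detection limit, plate rows and multicell libraries. Subtraction of negative-well reads was chosen after seeing the data. Some genes of the pathway are not reported here.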

Additional observations from a re-analysis of the deposited data

Results flagged for a closer look

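Bst2, the surface tether of budding virus, had opposite ratios in the 2 lineages between ablated and WT glands. Its log2 ratio was −1.11 in ablated luminal against WT luminal cells and 1.29 in ablated basal against WT basal cells, each past 2-fold. The difference between these ratios was not tested, since each group counts as 1 sample. With the top cell of each group left out, the ratios were −0.99 and 0.83. In the multicell libraries the luminal ratio was 2.32 and the basal ratio 0.06, and in the plate row that held both basal groups the basal ratio was −0.03.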

How the results depend on the processing

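Of 70 ratios of named members past 2-fold, 0 changed sign under the read minimum, mitochondrial limit, scaling, added CPM, cell weight, top cell and negative-well alternatives, 18 did in the multicell libraries and 7 of 45 did in a shared plate row. For calls and ratios, the cause was not tested in any of these. In the multicell libraries the median ratio of the set was 0.38 in hybrid against ablated basal cells and 0.16 in ablated against WT luminal cells. Counts there were 4 lower in hybrid against ablated luminal, 3 lower in hybrid against ablated basal, 10 higher and 6 lower in ablated against WT luminal, 10 lower in ablated against WT basal, and 6 lower in WT luminal against WT basal cells. The reversed multicell ratios were −0.80 for Ifi44, −0.91 for Gbp2 and −0.59 for Oas1a in hybrid against ablated luminal cells, and −1.74 for Gbp2 and −0.06 for Parp9 in hybrid against ablated basal cells. In ablated against WT luminal cells they were 2.32 for Bst2, 1.32 for Rtp4, 0.16 for Usp18, 1.86 for Gbp2 and −2.29 for Parp14, and in ablated against WT basal cells 2.51 for Eif2ak2. In ablated luminal against ablated basal cells they were −0.98 for Irf7, −1.43 for Xaf1, −0.06 for Parp9 and 0.42 for Ifitm3, and in WT luminal against WT basal cells −2.46 for Irf7, 1.25 for Stat2 and −1.82 for Ifi35. In a shared plate row, the ratio was −0.58 for Gbp2 in hybrid against ablated luminal cells. It was −0.03 for Bst2, 1.00 for Gbp2 and 3.25 for Lgals3bp in ablated against WT basal, −0.98 for Bst2 and −4.13 for Oasl2 in ablated luminal against ablated basal, and 0.06 for Stat2 in WT luminal against WT basal cells. Counts in shared rows were 3 lower in hybrid against ablated luminal, 11 higher in ablated against WT basal, 5 lower (set median 0.06) in ablated luminal against ablated basal, and 4 lower in WT luminal against WT basal cells. With 1 CPM added, 2 were lower in hybrid against ablated luminal, 26 higher and 2 lower (median 1.73) in hybrid against ablated basal, 6 higher in ablated against WT luminal, 11 higher and 8 lower in ablated against WT basal, and 4 lower in WT luminal against WT basal cells, and the median was 1.18 in ablated luminal against ablated basal cells. Without the top cells, 0 were lower in hybrid against ablated luminal, 0 higher and 3 lower in ablated against WT basal and 1 lower in WT luminal against WT basal cells, and the median was 1.36 in hybrid against ablated basal cells. With equal weight per cell, 5 were higher in hybrid against ablated luminal, 1 higher in ablated against WT luminal and 8 lower in ablated against WT basal cells. TMM gave 1 lower and median-of-ratios 2 lower in hybrid against ablated basal cells, and each gave 1 higher in ablated against WT luminal and 8 lower in ablated against WT basal cells. Scaling moved the median of all measured genes to 0.01 (TMM) and −0.01 (median-of-ratios), where it was 0.21, in ablated against WT luminal cells, and the median of the set there to −0.90 and −0.94. The median number of members per cell, for hybrid, ablated luminal, ablated basal, WT luminal and WT basal cells, was 13, 10, 6, 11 and 6 at 1 read and 13, 10, 5, 11 and 5 without thinning, and at 20 reads 6, 4.5 and 6 for hybrid, ablated luminal and WT luminal cells. No paired analysis was possible because the labels give no replicate numbers that groups share and no test was run.

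Each group is 1 sample with no animal named, and group, plate block and treatment cannot be told apart. Members at a few CPM rest on 1 to 5 cells, and so do some at higher levels. In WT basal cells 5 cells held 92.1% of the Irf9 reads (175 CPM) and 99.2% of the Gbp2 reads (79.9 CPM), against 29.5% for Ly6e. In ablated basal cells 5 cells held 97.2% of the Samhd1 reads (71 CPM). Cell numbers of the multicell libraries are not given in the sources used here.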
